A study of Mus musculus with 5 samples.

Results

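The genes described here encode the enzymes and transporters that take up glucose, split it to pyruvate by glycolysis, pass pyruvate to lactate or to the mitochondrion, and divert glucose 6-phosphate into the pentose phosphate pathway. They were chosen by gene name, and all 34 were found among the 24100 genes of the deposited count table. Glycolysis yields ATP and pyruvate in the cytosol. The pentose phosphate pathway runs from the same sugar phosphate and supplies NADPH for reductive synthesis and ribose for nucleotides. Most steps have several isozymes, encoded by different genes, that differ between tissues in affinity and regulation.

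All mice were males of mixed CD1 and C57Bl6J background, and RNA was sequenced from cells sorted as pigment lineage from their back skin. The melanocytes (3 libraries, postnatal day 10, hair follicles in full anagen, that is full growth) carried Dct-EGFP and Lef1-RFP reporters and were sorted as positive for both, positive for c-Kit, medium to low for integrin α6, and negative for CD31, CD45, CD140a, Sca-1 and CD34. The quiescent melanocyte stem cells (qMcSC, 2 libraries, postnatal days 60 and 62, the second telogen, a resting stage of the follicle) carried the Dct-eGFP reporter alone and were sorted by the same surface markers apart from c-Kit. Each library pooled cells of 2 to 4 males. The mice's age, the stage of the hair cycle, the reporters and the sorting gate differed together between the groups, so their parts in any difference below cannot be told apart. In bulk libraries, fewer cells of a type and less RNA per cell cannot be told apart either.

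Library totals ran from 17512381 to 124530834 counts. Pigment lineage markers (10 genes) summed to 3096, 18090 and 19760 CPM in melanocyte replicates 1, 2 and 3, against 20370 and 21780 CPM in qMcSC replicates 1 and 2. Melanocyte replicate 1 stands apart by its low sum. Of these 10 markers, 4 (Sox10, Mitf, Kit and Pax3) were higher in qMcSC, 0 were higher in melanocytes and 6 were not called. CPM are counts relative to each library's total, per 1e6 counts, scaled by the trimmed mean of M-values (TMM). Of 13 hair follicle and hair shaft markers, all 13 were higher in melanocytes (summed level 3627 to 5125 CPM in melanocytes, against 66.6 and 18.9 CPM in qMcSC, where Krt34 had no count). All 8 fibroblast and dermal papilla markers were also higher in melanocytes (1894 to 5283 CPM, highest in replicate 1, against 40.7 and 11.8 CPM in qMcSC). All 8 cycling cell markers were higher in melanocytes (2219 to 2250 CPM, against 93.1 and 46.2 CPM). Immediate early and stress genes, 10 in the list, were each lower in melanocytes (1968 to 2307 CPM in melanocytes, against 23550 and 37450 CPM). Whether dissociation of the tissue raised them was not tested. All 6 endothelial, 6 smooth muscle and pericyte, 6 skeletal muscle and 3 erythroid markers were also higher in melanocytes, with the erythroid sum at 537, 194 and 191 CPM in melanocytes, against 9.54 and 11.3 CPM in qMcSC. Of 8 immune markers, 5 were higher in melanocytes and 2 in qMcSC, and of 5 Schwann cell markers, 3 were higher in melanocytes and 2 in qMcSC. The 10 keratinocyte markers summed to 4261 to 5592 CPM in melanocytes, against 3347 and 4538 CPM in qMcSC, with 5 (among them Trp63 and Krt5) higher in melanocytes and 4 (among them Krt10 and Krt15) higher in qMcSC. The keratinocyte sums thus overlapped between the groups. Markers that differed between the groups vary together with the group differences below, and their part in those was not tested.

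Along the pathway the groups differed by step. Enzymes from triose phosphate isomerase to pyruvate kinase and all 7 pentose phosphate enzymes were higher in melanocytes, with the exception of the enolase isozyme Eno2. Both glucose transporters were higher in qMcSC, and isozymes of lactate transport and of the pyruvate dehydrogenase kinases differed in opposite directions. Of the 34 genes, all passed the filter on low counts. In the whole-table test 20 were higher in melanocytes, 8 were higher in qMcSC and 6 were not called, where a call is a Benjamini-Hochberg adjusted p under 0.05. Over all 16953 genes tested, 29.1% were called higher in melanocytes and 26.2% higher in qMcSC, so calls are common in this comparison. The share of all calls that were higher in melanocytes was 52.6%, against 63.7% when libraries were scaled by size alone. The median log2 fold change, melanocyte over qMcSC, was 0.62 for the 34 genes and 0.03 for all genes tested. Scaling by size alone put these medians at 0.84 and 0.26, and no member changed direction. Libraries of the groups did not overlap in 31 of the 34 genes, and in 74.5% of all tested genes. Without melanocyte replicate 1, 22 members were called higher in melanocytes and 9 in qMcSC.

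**Figure D1:**
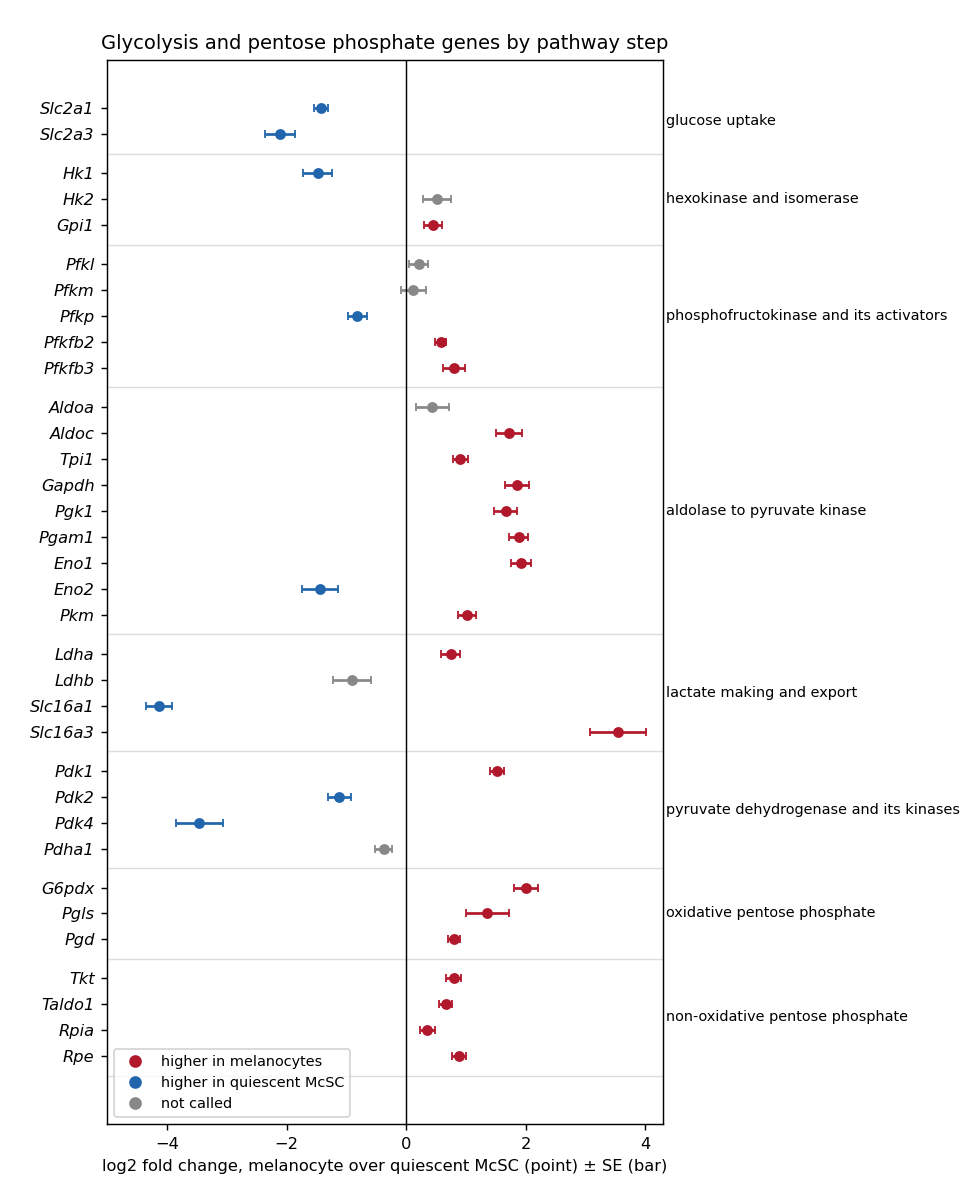
Log2 fold change of each of the 34 genes, melanocyte over qMcSC (horizontal axis, points with bars of 1 SE, red where called higher in melanocytes, blue where called higher in qMcSC, grey where not called), ordered from glucose uptake at the top to the non-oxidative pentose phosphate genes at the bottom. Slc16a3 (3.55) and Slc16a1 (-4.14) lie at the opposite ends, and all 7 pentose phosphate genes lie to the right of 0.

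The summed level of the 34 genes was 6139, 7889 and 7556 CPM in melanocyte replicates 1 to 3, against 3951 and 3919 CPM in qMcSC. Gapdh alone gave 1478, 1969 and 1817 CPM of it in melanocytes, against 507 and 459.8 CPM in qMcSC. Without Gapdh the sums were 4661, 5919 and 5739 CPM in melanocytes, against 3444 and 3460 CPM in qMcSC. Both sums were higher in each melanocyte library than in either qMcSC library. Within melanocytes, replicate 1 was the lowest library in 22 of the 34 genes, replicate 2 in 6 and replicate 3 in 6. The highest melanocyte library exceeded the lowest by more than 1.5-fold in 9 of the 34 genes, and the same was true of qMcSC in 1 gene, Slc16a3. A range over 3 libraries tends to be wider than one over 2, so these counts do not compare the spread of the groups.

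Promoter windows of 7 genes are shown as examples. Each gene had the largest difference in its direction within its step, except Ldha, whose window holds the most copies of the motifs searched. Other genes that were largest in this way, such as Hk1, Pfkp and Rpe, are not shown. Each window runs from 250 bases before to 50 bases after a RefSeq transcription start on GRCm38.p6, 5′ to 3′ on the gene's strand. Capitals mark ACGTG and GCGTG on either strand, the core letters of hypoxia response elements. ACGTG is also part of CACGTG, an E-box bound by MYC and MITF family factors, and a CACGTG counts as 2 overlapping copies of ACGTG.
Slc16a3 (chr11:120948817-120949116, plus strand): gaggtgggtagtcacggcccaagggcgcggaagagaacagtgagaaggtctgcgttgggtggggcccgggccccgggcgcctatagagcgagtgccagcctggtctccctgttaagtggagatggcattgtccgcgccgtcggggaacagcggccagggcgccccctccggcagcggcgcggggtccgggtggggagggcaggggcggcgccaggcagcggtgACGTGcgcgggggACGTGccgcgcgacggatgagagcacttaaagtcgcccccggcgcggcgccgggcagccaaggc
Slc16a1 (chr3:104638414-104638713, plus strand): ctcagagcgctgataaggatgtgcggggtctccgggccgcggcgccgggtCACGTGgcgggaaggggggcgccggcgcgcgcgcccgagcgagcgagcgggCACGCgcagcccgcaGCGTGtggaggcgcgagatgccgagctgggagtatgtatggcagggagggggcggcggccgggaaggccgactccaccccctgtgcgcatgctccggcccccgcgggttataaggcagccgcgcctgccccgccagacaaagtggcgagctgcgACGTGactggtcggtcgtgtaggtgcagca
Ldha (chr7:46845554-46845853, plus strand): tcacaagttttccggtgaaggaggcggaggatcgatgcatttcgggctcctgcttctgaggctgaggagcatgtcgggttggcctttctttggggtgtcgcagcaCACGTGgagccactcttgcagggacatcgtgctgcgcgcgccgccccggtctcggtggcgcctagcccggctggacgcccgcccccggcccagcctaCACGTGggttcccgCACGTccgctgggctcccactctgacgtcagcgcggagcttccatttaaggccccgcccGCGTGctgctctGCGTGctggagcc
Pdk1 (chr2:71872974-71873273, plus strand): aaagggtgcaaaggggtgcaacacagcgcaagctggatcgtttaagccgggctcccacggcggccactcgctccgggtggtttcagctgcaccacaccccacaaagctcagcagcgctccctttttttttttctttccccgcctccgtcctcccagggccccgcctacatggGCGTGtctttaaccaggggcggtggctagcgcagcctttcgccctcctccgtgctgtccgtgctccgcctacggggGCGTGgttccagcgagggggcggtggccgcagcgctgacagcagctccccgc
Pdk4 (chr6:5496229-5496528, minus strand): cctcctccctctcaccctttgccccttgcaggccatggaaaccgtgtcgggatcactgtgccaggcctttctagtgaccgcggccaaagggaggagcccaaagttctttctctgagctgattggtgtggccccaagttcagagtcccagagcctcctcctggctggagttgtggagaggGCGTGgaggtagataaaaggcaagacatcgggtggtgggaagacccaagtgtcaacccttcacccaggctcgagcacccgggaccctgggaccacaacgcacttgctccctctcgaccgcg
Eno1 (chr4:150236458-150236757, plus strand): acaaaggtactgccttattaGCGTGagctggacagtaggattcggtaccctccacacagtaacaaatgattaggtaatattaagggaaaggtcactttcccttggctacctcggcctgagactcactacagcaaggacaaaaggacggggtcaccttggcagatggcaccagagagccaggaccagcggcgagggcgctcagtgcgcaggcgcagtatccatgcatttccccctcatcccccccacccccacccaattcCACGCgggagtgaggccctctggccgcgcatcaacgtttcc
G6pdx (chrX:74428831-74429130, minus strand): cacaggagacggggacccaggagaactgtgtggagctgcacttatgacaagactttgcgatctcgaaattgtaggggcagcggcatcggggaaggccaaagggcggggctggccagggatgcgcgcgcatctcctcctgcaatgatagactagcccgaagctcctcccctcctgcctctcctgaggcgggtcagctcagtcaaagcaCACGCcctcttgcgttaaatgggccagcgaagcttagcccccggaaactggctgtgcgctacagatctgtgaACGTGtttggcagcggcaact

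The Ldha window holds 5 copies of ACGTG, which include 2 CACGTG, and the Slc16a1 window holds 3, which include 1 CACGTG. Slc16a1 and Slc16a3 lie at opposite ends of the comparison, and both windows hold ACGTG. A window was found for 33 of the 34 genes, with 1 window used per gene, the start nearest the gene's 5′ end. ACGTG or GCGTG occurred in 26 of these 33 windows (78.8%), against 43.8% of the 27025 windows of all genes. Those 27025 windows include genes that were not tested here, whereas every member was tested. CACGTG occurred in 4 of the 33 windows (12.1%), against 7.24% of all windows. The genes higher in melanocytes held ACGTG or GCGTG in 16 of 20 windows, those higher in qMcSC in 5 of 7, and those not called in 5 of 6. All motifs contain a CG pair, and the windows of the members held a median of 21 CG pairs, against 7 for all windows; its part in the motif count was not tested. A match describes letters in the window and not a bound site.

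Glucose enters cells through facilitative transporters, and both members of this step were higher in qMcSC. Slc2a1, the broadly expressed transporter GLUT1, stood at 35.8, 40.4 and 37.4 CPM in melanocyte replicates 1 to 3, against 94.2 and 110.0 CPM in qMcSC (log2 fold change -1.43 ± 0.12 SE, adjusted p = 0.000267). Slc2a3, the high-affinity transporter GLUT3, stood at 5.33, 3.56 and 3.64 CPM in melanocytes, against 16.5 and 19.7 CPM in qMcSC (-2.11 ± 0.25, adjusted p = 0.001). For both transporters every qMcSC library lay above every melanocyte library. Slc2a1 was the higher of the pair per kilobase of exon in both groups, at a mean level of 11.6 CPM per kb in melanocytes and 31.3 CPM per kb in qMcSC, against 1.06 and 4.57 CPM per kb for Slc2a3.

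Hexokinase traps glucose as glucose 6-phosphate, and of its main isozymes Hk1 was lower in melanocytes and Hk2 was not called. Hk1, the constitutive isozyme, stood at 18.9, 31.4 and 33.3 CPM in melanocytes, against 77.6 and 77.2 CPM in qMcSC (-1.48 ± 0.24, adjusted p = 0.00321). Hk2, the inducible isozyme, stood at 72.0, 107.7 and 123.7 CPM in melanocytes, against 71.9 and 69.3 CPM in qMcSC, and was not called (0.52 ± 0.23, adjusted p = 0.0993). Melanocyte replicate 1 lay within 1 CPM of qMcSC replicate 1 for Hk2, and without that melanocyte library Hk2 was called higher in melanocytes (log2 fold change 0.72, adjusted p = 0.00196), as it was when libraries were scaled by size alone (0.73, adjusted p = 0.0285). Gpi1, the isomerase that makes fructose 6-phosphate, stood at 248, 332 and 285 CPM in melanocytes, against 210.4 and 212 CPM in qMcSC (0.45 ± 0.15, adjusted p = 0.0483). That call lay close to the threshold and was lost without qMcSC replicate 1 or 2 (adjusted p = 0.185 and 0.18) and without melanocyte replicate 2 or 3 (0.0836 and 0.0947).

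Phosphofructokinase commits the sugar to glycolysis. Its liver-type subunit gene Pfkl was at 83.4, 75.1 and 97.7 CPM in melanocytes, against 64.6 and 82.9 CPM in qMcSC (0.21 ± 0.16, adjusted p = 0.317). Its muscle-type subunit gene Pfkm was at 32.5, 25.1 and 21.9 CPM in melanocytes, against 26.2 and 22.5 CPM in qMcSC (0.12 ± 0.20, adjusted p = 0.629). The groups overlapped for both subunits. The platelet-type subunit gene Pfkp was higher in qMcSC, at 31.1, 39.5 and 41.6 CPM in melanocytes, against 68.9 and 62.5 CPM in qMcSC (-0.81 ± 0.15, adjusted p = 0.0055). Pfkfb2 and Pfkfb3 encode the bifunctional enzymes that make fructose 2,6-bisphosphate, the activator of phosphofructokinase, and both were higher in melanocytes. Pfkfb2 stood at 85.4, 90.9 and 86.3 CPM in melanocytes, against 57.1 and 60.3 CPM in qMcSC (0.58 ± 0.10, adjusted p = 0.00355). Pfkfb3 stood at 15.8, 14.6 and 13.7 CPM in melanocytes, against 9.06 and 7.88 CPM in qMcSC (0.80 ± 0.18, adjusted p = 0.0121). The call of Pfkfb3 was lost without qMcSC replicate 2 (adjusted p = 0.0839).

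The steps from aldolase to pyruvate kinase form the trunk of glycolysis and include its most abundant transcript, Gapdh. Of 9 genes, 7 were higher in melanocytes, 1 was higher in qMcSC and 1 was not called (median log2 fold change 1.67). Gapdh, glyceraldehyde 3-phosphate dehydrogenase, averaged 1755 ± 251 CPM in melanocytes and 483 ± 33.4 CPM in qMcSC (SD, n = 3 and 2), a 3.63-fold difference (log2 fold change 1.86 ± 0.20 SE, adjusted p = 0.000656). Pgk1, the phosphoglycerate kinase that makes the first ATP of the pathway, stood at 303, 435 and 421 CPM in melanocytes, against 126 and 117 CPM in qMcSC (1.67 ± 0.20, adjusted p = 0.000932). Both genes were higher in each melanocyte library than in either qMcSC library, and the same held for the mutase and the main enolase that follow them. Pgam1, phosphoglycerate mutase, stood at 365, 466 and 464 CPM in melanocytes, against 115 and 119 CPM in qMcSC (1.88 ± 0.16, adjusted p = 0.000322). Eno1, the widely expressed enolase, stood at 386, 506 and 484 CPM in melanocytes, against 120.3 and 122 CPM in qMcSC (1.92 ± 0.17, adjusted p = 0.000324). Eno1 has a near-identical copy, Eno1b, and reads may be split between them. Gapdh and several other glycolytic genes also have processed pseudogenes, and how reads shared with those were counted is not given in the sources used here. Eno1b was also higher in melanocytes (1.62 ± 0.16, adjusted p = 0.000505), and the pair summed to 518, 676 and 659 CPM in melanocytes, against 175 and 171 CPM in qMcSC.

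Of the remaining 5 genes of this stretch, 3 were higher in melanocytes. Tpi1, triose phosphate isomerase, stood at 243, 276 and 286 CPM in melanocytes, against 139.7 and 146 CPM in qMcSC (0.91 ± 0.13, adjusted p = 0.00169). Pkm, the pyruvate kinase of most tissues, stood at 712, 844 and 805 CPM in melanocytes, against 367 and 408 CPM in qMcSC (1.02 ± 0.15, adjusted p = 0.00227). Counts per gene do not separate the spliced forms of Pkm. Aldoa, the main aldolase, stood at 336, 594 and 607 CPM in melanocytes, against 380.5 and 374 CPM in qMcSC, and missed the threshold (0.44 ± 0.27, adjusted p = 0.216). For this gene melanocyte replicate 1 lay below both qMcSC libraries, and without it Aldoa was called higher in melanocytes (0.67, adjusted p = 0.00433). Aldoc, the minor aldolase best known from brain, was higher in melanocytes at a low level, at 16.2, 20.8 and 15.8 CPM, against 5.09 and 5.62 CPM in qMcSC (1.72 ± 0.22, adjusted p = 0.00118). Eno2, the enolase known from neurons, was the member that was higher in qMcSC, at 8.73, 4.52 and 6.31 CPM in melanocytes, against 16.8 and 18.5 CPM in qMcSC (-1.44 ± 0.30, adjusted p = 0.00794). The call of Eno2 was lost without qMcSC replicate 2 (adjusted p = 0.054).

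**Figure D2:**
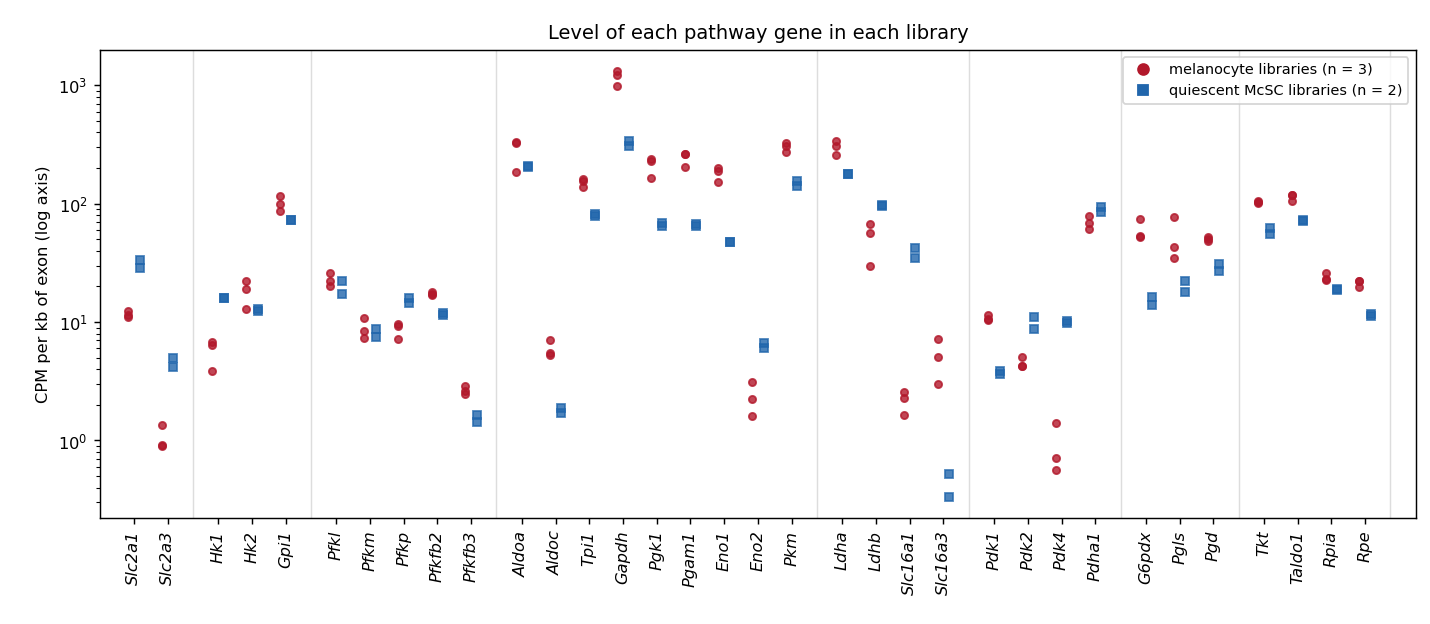
Level of each of the 34 genes in each library, in CPM per kb of exon on a log axis, with 3 melanocyte libraries (circles, left) and 2 qMcSC libraries (squares, right) per gene, in pathway order. Gapdh was the most abundant member in both groups, with means of 1174 CPM per kb in melanocytes and 323 CPM per kb in qMcSC, and Slc16a3 was the least abundant in qMcSC, at 0.431 CPM per kb.

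Lactate dehydrogenase interconverts pyruvate and lactate through subunits of the Ldha and Ldhb genes. Ldha stood at 492, 640.1 and 580.2 CPM in melanocytes, against 337 and 341 CPM in qMcSC (0.75 ± 0.16, adjusted p = 0.00883). Ldhb stood at 38.7, 88.7 and 73.6 CPM in melanocytes, against 124 and 127 CPM in qMcSC, and just missed the threshold (-0.91 ± 0.32, adjusted p = 0.0538). Each melanocyte library lay above both qMcSC libraries for Ldha and below them for Ldhb. The call of Ldha was lost without qMcSC replicate 1 or 2 (adjusted p = 0.0677 and 0.0651). Ldhb was called higher in qMcSC without melanocyte replicate 1 (-0.62, adjusted p = 0.00523) or replicate 2 (-1.20, adjusted p = 0.0317). In all it was called in 7 of the 13 alternatives, among them DESeq2 (adjusted p = 0.0222), limma-voom (0.0408), no filter (0.0451) and thinning to the shallowest library (0.0461).

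Lactate crosses the membrane through monocarboxylate transporters, and the largest differences of the whole set lay here. Slc16a1 encodes MCT1, a carrier of many tissues. It stood at 7.30, 11.4 and 10.1 CPM in melanocytes, against 186 and 153 CPM in qMcSC, a 17.6-fold lower level in melanocytes (-4.14 ± 0.22, adjusted p = 7.21e-05). Slc16a3 encodes MCT4, the low-affinity exporter typical of glycolytic cells. It stood at 13.4, 22.4 and 32.0 CPM in melanocytes, against 1.49 and 2.34 CPM in qMcSC, an 11.7-fold higher level in melanocytes (3.55 ± 0.46, adjusted p = 0.00134). Both differences exceeded the spread between libraries, and both were called in each of the 13 alternative settings. Slc16a7, the related transporter MCT2 and not among the 34 genes, was also higher in melanocytes, at 38.6, 37.0 and 36.5 CPM, against 3.45 and 2.40 CPM in qMcSC (3.68 ± 0.22, adjusted p = 9.66e-05). Bsg (basigin), the partner that carries MCT1 and MCT4 to the membrane, averaged 266 ± 50.2 CPM in melanocytes and 198 ± 16.8 CPM in qMcSC and was not called (0.43 ± 0.19, adjusted p = 0.099). Emb (embigin), a partner of MCT2, was at 16.1, 3.97 and 2.57 CPM in melanocytes, against 23.8 and 30.8 CPM in qMcSC, and was not called either (-1.84 ± 0.73, adjusted p = 0.075).

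Pyruvate dehydrogenase admits pyruvate to the mitochondrion's citric acid cycle, and 4 kinases switch it off by phosphorylation. Pdk1, a kinase known as a hypoxia target, stood at 55.5, 54.1 and 59.0 CPM in melanocytes, against 19.0 and 20.2 CPM in qMcSC (1.52 ± 0.11, adjusted p = 0.000203). Pdk4, the kinase known from fasting and fat oxidation, stood at 2.47, 4.88 and 1.98 CPM in melanocytes, against 34.5 and 35.3 CPM in qMcSC (-3.46 ± 0.39, adjusted p = 0.000767). Pdk2, the most widely expressed kinase, stood at 11.4, 9.62 and 9.62 CPM in melanocytes, against 19.5 and 24.8 CPM in qMcSC (-1.12 ± 0.19, adjusted p = 0.00369). Pdk1 was thus higher, and Pdk2 and Pdk4 lower, in each melanocyte library than in either qMcSC library. The remaining kinase, Pdk3, which is not among the 34 genes, was higher in melanocytes (41.6, 56.7 and 41.9 CPM, against 14.0 and 14.3 CPM; 1.73 ± 0.18, adjusted p = 0.00065). Pdha1, the catalytic subunit that the kinases phosphorylate, stood at 175, 223 and 194 CPM in melanocytes, against 267 and 244 CPM in qMcSC, and was not called (-0.37 ± 0.14, adjusted p = 0.0655). Without melanocyte replicate 2 Pdha1 was called higher in qMcSC (-0.49, adjusted p = 0.0253), as it was by DESeq2 (adjusted p = 0.0413) and limma-voom (0.0498). The phosphatases that reverse the kinases also differed in opposite directions, with Pdp2 higher in melanocytes (1.49 ± 0.20, adjusted p = 0.00158) and Pdp1 higher in qMcSC (-1.37 ± 0.13, adjusted p = 0.000413).

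The oxidative branch of the pentose phosphate pathway makes NADPH, and its 3 enzymes were all higher in melanocytes. G6pdx, glucose 6-phosphate dehydrogenase, the step that commits sugar to the branch, stood at 140.1, 199 and 142 CPM in melanocytes, against 43.0 and 37.0 CPM in qMcSC, a 4.01-fold difference (2.00 ± 0.20, adjusted p = 0.000517). Pgls, the lactonase of the next step, stood at 40.7, 51.2 and 91.7 CPM in melanocytes, against 21.2 and 26.3 CPM in qMcSC (1.36 ± 0.36, adjusted p = 0.0199). Pgd, the dehydrogenase that makes more NADPH and ribulose 5-phosphate, stood at 115, 112 and 108 CPM in melanocytes, against 59.96 and 68.1 CPM in qMcSC (0.80 ± 0.11, adjusted p = 0.00141). No qMcSC library reached a melanocyte library in any of these 3 genes. Of the 3, Pgls varied most among melanocytes, with replicate 3 above the others, and its call was lost without qMcSC replicate 1 or 2 (adjusted p = 0.122 and 0.0767).

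The non-oxidative branch shuffles sugar phosphates between ribose and glycolysis, and its 4 enzymes were also higher in melanocytes. Tkt, transketolase, stood at 324, 332 and 339 CPM in melanocytes, against 202 and 180.1 CPM in qMcSC (0.80 ± 0.12, adjusted p = 0.00238). Taldo1, transaldolase, averaged 157 ± 10.3 CPM in melanocytes and 98.9 ± 1.33 CPM in qMcSC (0.67 ± 0.11, adjusted p = 0.00309). Rpe, the epimerase that makes the xylulose 5-phosphate used by transketolase, averaged 58.4 ± 3.71 CPM in melanocytes and 31.5 ± 0.917 CPM in qMcSC (0.89 ± 0.11, adjusted p = 0.00121). These 3 genes kept their call in every alternative. Rpia, the isomerase that makes ribose 5-phosphate, differed least, at 42.1, 41.8 and 47.9 CPM in melanocytes, against 33.8 and 34.7 CPM in qMcSC (0.36 ± 0.12, adjusted p = 0.043). Its call was lost without qMcSC replicate 1 or 2 (adjusted p = 0.18 and 0.152) and without melanocyte replicate 2 or 3 (0.0631 and 0.114). Downstream of ribose 5-phosphate, outside the 34 genes, the synthetases that make the activated ribose of nucleotides divided. Prps2 was higher in melanocytes (243.8, 338 and 291 CPM, against 95.8 and 106 CPM; 1.53 ± 0.17, adjusted p = 0.000816). Prps1 was higher in qMcSC (29.9, 37.3 and 35.3 CPM in melanocytes, against 83.5 and 76.0 CPM in qMcSC; -1.22 ± 0.13, adjusted p = 0.000665).

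Ratios of isozymes within a library do not depend on the scaling between libraries. Over 10 pairs, levels per kilobase of exon were divided within each library, and the mean log2 ratios were compared by an exact two-sided permutation test. With 3 against 2 libraries there are 10 splits, so p cannot fall below 0.1. Slc16a3 over Slc16a1 was 1.83, 1.95 and 3.17 in melanocytes, against 0.00799 and 0.0153 in qMcSC, so that the more abundant transporter of the pair was Slc16a3 in melanocytes and Slc16a1 in qMcSC (difference in mean log2 ratio 7.67, exact p = 0.1, 0.125 adjusted over the 10 pairs). Pdk1 over Pdk2 was 2.11, 2.44 and 2.65 in melanocytes, against 0.423 and 0.353 in qMcSC. Hk2 over Hk1 was 3.30, 2.97 and 3.22 in melanocytes, against 0.801 and 0.775 in qMcSC. In these 3 pairs the leading isozyme was a different one in each group. Eno2 over Eno1 was 0.0206, 0.00813 and 0.0119 in melanocytes, against 0.127 and 0.138 in qMcSC, and Ldhb over Ldha was 0.114, 0.201 and 0.184, against 0.533 and 0.542. For both of these pairs the same isozyme led in all 5 libraries, by a wider margin in melanocytes.

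Pdk4 over Pdk2 was 0.139, 0.327 and 0.133 in melanocytes, against 1.14 and 0.918 in qMcSC. Aldoc over Aldoa was 0.0295, 0.0215 and 0.0159 in melanocytes, against 0.00819 and 0.00919 in qMcSC, and Pfkp over Pfkl was 0.323, 0.457 and 0.370, against 0.927 and 0.654. For these 3 pairs, as for the 5 above, the groups did not overlap (exact p = 0.1, 0.125 adjusted for each). Lack of overlap is common in this comparison, at 74.5% of all single genes tested. No such share was computed for ratios of other genes. Slc2a1 over Slc2a3 was 8.16, 13.8 and 12.5 in melanocytes, against 6.92 and 6.79 in qMcSC, without overlap (exact p = 0.2, 0.222 adjusted). Pfkm over Pfkl was 0.485, 0.415 and 0.279 in melanocytes, against 0.505 and 0.337 in qMcSC, and the groups overlapped (exact p = 0.9).

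**Figure D3:**
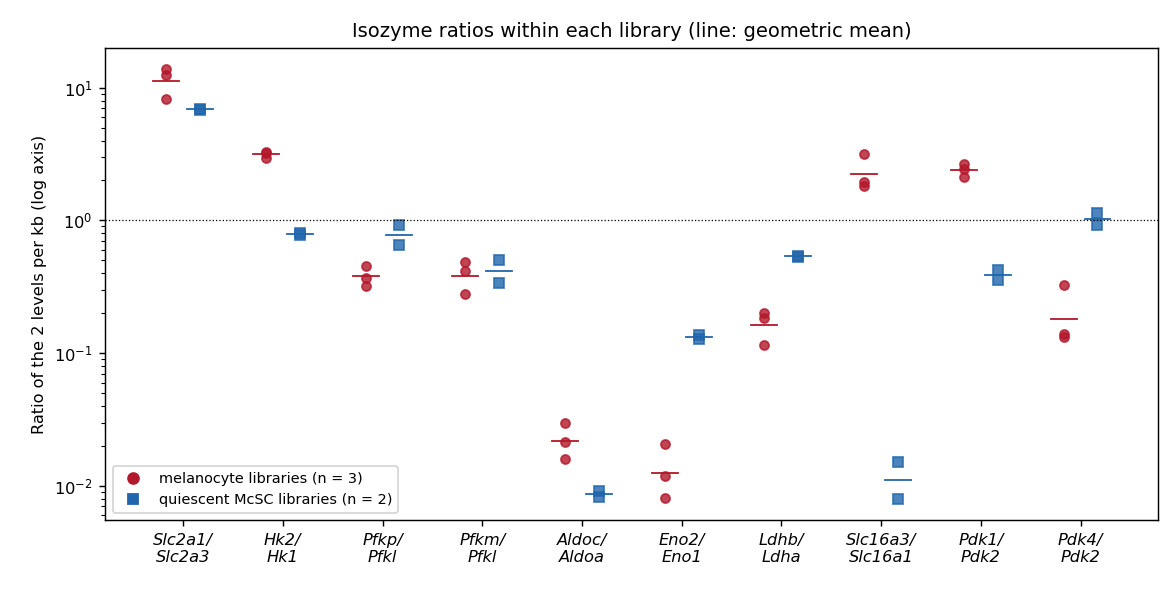
Ratio of the levels per kb of 2 isozyme genes within each library (log axis) for 10 pairs, with melanocyte libraries as circles and qMcSC libraries as squares, and lines at the geometric means. Slc16a3/Slc16a1, Pdk1/Pdk2 and Hk2/Hk1 lie above 1 in all 3 melanocyte libraries and below 1 in both qMcSC libraries.

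Genes of glucose metabolism outside the 34 were called in both directions, as were genes at large. Over all genes tested, 29.1% were called higher in melanocytes and 26.2% higher in qMcSC, so the counts below are not particular to these lists. Of 13 further genes of hexose transport and phosphorylation, 10 were tested, and 3 were higher in melanocytes and 3 in qMcSC. Slc2a9, a urate and hexose transporter, was at 1.38, 1.01 and 0.695 CPM in melanocytes, against 29.7 and 31.1 CPM in qMcSC (-4.85 ± 0.29, adjusted p = 0.000105). Adpgk, an ADP-dependent glucokinase, was higher in melanocytes (1.04 ± 0.16, adjusted p = 0.00245). Of 8 further glycolytic isozymes and bisphosphate enzymes tested, 3 were higher in melanocytes and 2 in qMcSC. Tigar, a phosphatase of fructose 2,6-bisphosphate, was higher in melanocytes (1.17 ± 0.16, adjusted p = 0.00175), and Pfkfb4, a bifunctional enzyme related to Pfkfb2 and Pfkfb3, was higher in qMcSC (-2.02 ± 0.34, adjusted p = 0.00363). Of 13 further genes of pyruvate and lactate handling, 4 were higher in melanocytes, 1 in qMcSC and 8 were not called, among them the pyruvate carrier genes Mpc1 and Mpc2 (log2 fold changes 0.07 and -0.01). Of 5 tested gluconeogenesis genes, Fbp1, fructose bisphosphatase, was higher in melanocytes (9.22, 19.3 and 16.8 CPM, against 0.209 and 0.0625 CPM; 6.89 ± 0.68, adjusted p = 0.000489). Pcx and G6pc3 were higher in qMcSC (-0.69 ± 0.15 and -0.74 ± 0.13, adjusted p = 0.00896 and 0.0042), and the call of Pcx was lost without qMcSC replicate 2 (adjusted p = 0.0718).

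Regulators of glycolytic genes were all called, 6 of 16 higher in melanocytes and 10 higher in qMcSC, against 55.4% of all tested genes called in either direction. Mycn, a MYC family factor, stood at 79.3, 73.8 and 92.5 CPM in melanocytes, against 3.79 and 4.13 CPM in qMcSC (4.37 ± 0.16, adjusted p = 4.31e-05). Myc itself stood at 50.02, 47.6 and 46.6 CPM in melanocytes, against 226 and 265 CPM in qMcSC (-2.35 ± 0.11, adjusted p = 6.4e-05). Mycn was higher, and Myc lower, in each melanocyte library than in either qMcSC library. Egln3, an oxygen sensor that is itself a hypoxia target, stood at 40.2, 49.8 and 42.6 CPM in melanocytes, against 3.88 and 3.57 CPM in qMcSC (3.57 ± 0.17, adjusted p = 6.4e-05). Vhl, which targets the hypoxia factors for degradation, was higher in melanocytes (1.30 ± 0.17, adjusted p = 0.00139). The hypoxia factor genes Hif1a (-0.41 ± 0.12, adjusted p = 0.0299), Epas1 (-1.24 ± 0.28, adjusted p = 0.0112) and Arnt (-0.48 ± 0.09, adjusted p = 0.00655) were higher in qMcSC. Of the other oxygen sensors, Egln1 was higher in melanocytes (0.92 ± 0.13), and Egln2 (-0.76 ± 0.14) and Hif1an (-0.85 ± 0.10) were higher in qMcSC. Txnip, a glucose-responsive inhibitor of glucose uptake, stood at 141, 168 and 112 CPM in melanocytes, against 1120.0 and 1099 CPM in qMcSC (-2.98 ± 0.20, adjusted p = 0.000135). Ppargc1a, a coactivator of mitochondrial genes, was higher in qMcSC (4.79, 8.30 and 5.88 CPM in melanocytes, against 32.6 and 33.5 CPM; -2.38 ± 0.25, adjusted p = 0.000651). Of 11 hypoxia target genes outside glycolysis, 2 were higher in melanocytes, 3 in qMcSC and 6 were not called. Ndrg1 (-3.35 ± 0.35, adjusted p = 0.000617), Kdm3a (-1.22 ± 0.10, adjusted p = 0.000314) and P4ha1 (-0.80 ± 0.12, adjusted p = 0.00219) were the 3 higher in qMcSC. The 2 higher in melanocytes were Adm (1.19 ± 0.26, adjusted p = 0.00905) and Car9 (1.58 ± 0.40, adjusted p = 0.0175). Both calls were lost without qMcSC replicate 1 (log2 fold changes 1.22 and 1.40) or replicate 2 (1.17 and 1.79). Car9 was low, at 1.085, 0.850 and 0.909 CPM in melanocytes, against 0.273 and 0.357 CPM in qMcSC, on 17 to 58 counts. Its call was also lost on thinning to the shallowest library (adjusted p = 0.0784) and under the replicate block (0.0785).

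**Figure D4:**
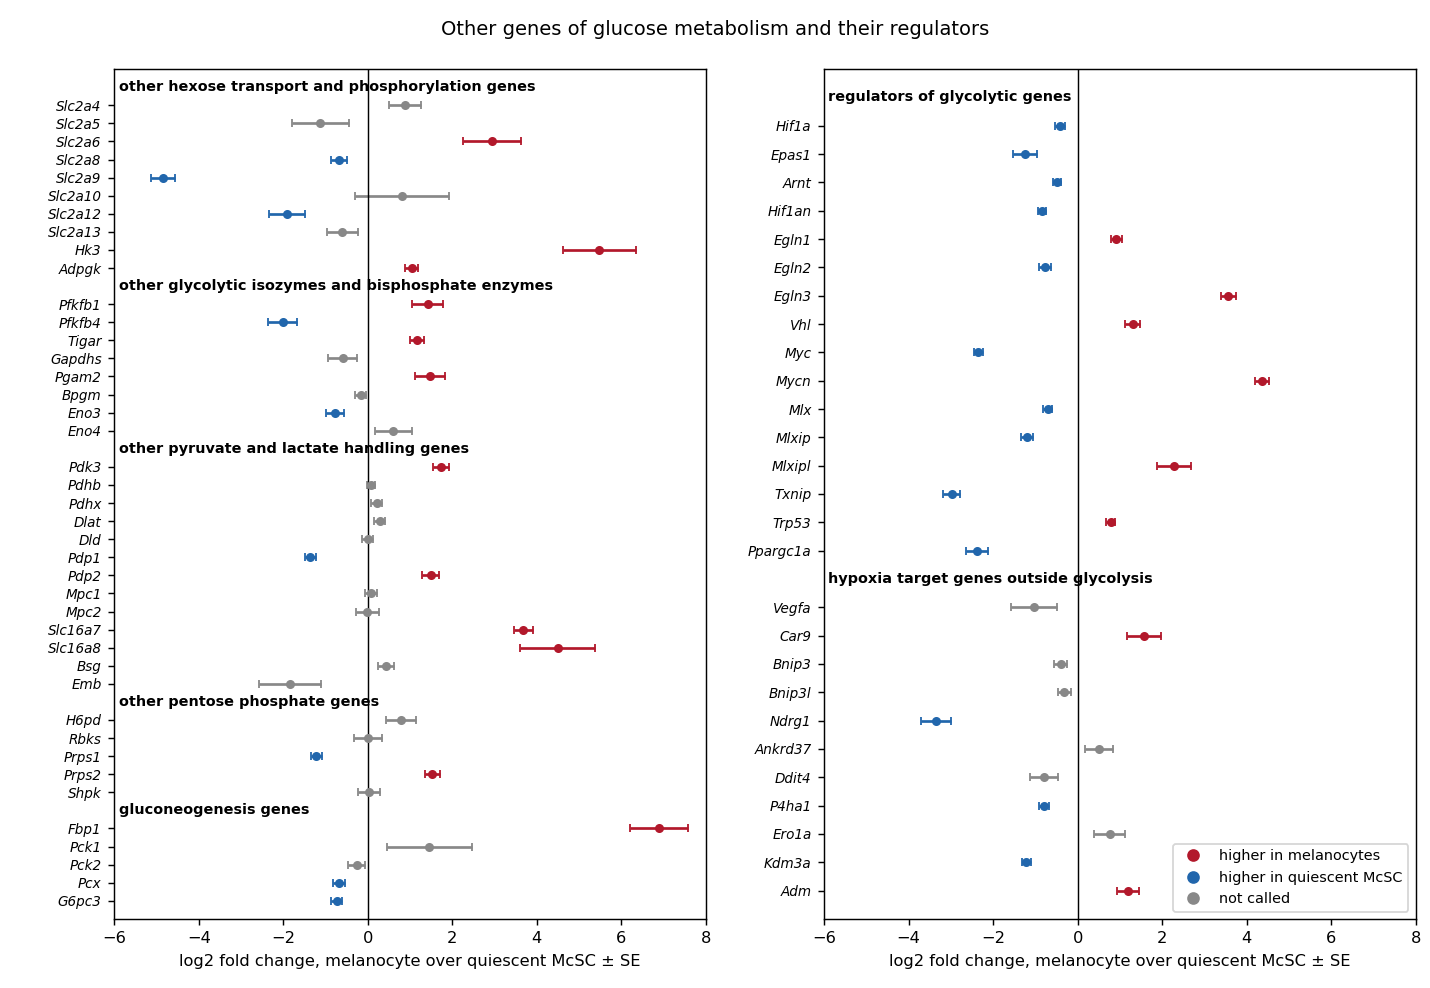
Log2 fold change, melanocyte over qMcSC, with bars of 1 SE, for the tested genes of glucose metabolism outside the 34 (left) and for regulators and hypoxia targets (right). Mycn (4.37) and Egln3 (3.57) lie to the right among the regulators, with Txnip (-2.98) and Myc (-2.35) to the left.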

How the data were processed

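The 5 libraries were poly-A selected and did not keep strand. The deposited table holds whole-number counts per gene, by Entrez identifier, read as raw counts. The submitters' processing notes list mm10 as the build, with STAR 2.5.2a and Salmon 0.8.2 and no role for either. Which program made the counts is not given in the sources used here. Symbols matched 24045 of 24100 genes in RefSeq GRCm38.p6, and promoter sequences are from the same RefSeq build. Merged exon lengths for levels per kilobase came from GENCODE M21.

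Genes were filtered with filterByExpr. TMM factors were computed, and edgeR 4.0.16 in R 4.3.3 gave two-sided quasi-likelihood tests. Adjustment by Benjamini-Hochberg ran over 16953 genes, with a threshold of 0.05. All 5 libraries entered the fit, without covariates. SEs are fold changes divided by the root of F. The procedure was checked on simulated counts. The labels call the libraries biological replicates of pooled animals. Totals differed 7.11-fold between libraries, so a count of 3 was worth 0.0241 to 0.171 CPM.

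The members and lists were chosen with earlier results of these data known. All members may be named, and of each other pathway list up to 3 called genes in each direction with the smallest p. Genes named beyond this, Bsg, Emb, Mpc1, Mpc2, Eno1b, Hif1a, Epas1, Arnt, Egln1, Egln2 and Hif1an, were chosen after their values were seen. Alternatives were DESeq2 1.42.0, limma-voom (limma 3.58.1), other size factors, library size only, omitting the filter, requiring 5 CPM in 2 libraries, thinning to the shallowest library, a replicate block, and leaving out each library in turn.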

Additional observations from a re-analysis of the deposited data

How the results depend on the processing

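Of the 34 genes, 23 kept their direction and their side of the threshold in all 13 alternatives, 22 of them called. The other 6 called genes (Gpi1, Ldha, Rpia, Pgls, Pfkfb3 and Eno2) lost the call in at least 1. With library size only the median log2 fold change of the members was 0.84 and that of all genes 0.26. Leaving out each library in turn, 15 to 22 members were higher in melanocytes and 7 to 10 in qMcSC, their median was 0.57 to 0.72, and 6265 to 10005 of all genes were called. A lone qMcSC library is assumed to vary like the melanocyte libraries. DESeq2 called 20 and 10 members, and no filter 18 and 9. The log2 fold change of Pfkm, not called, ran from -0.043 without melanocyte replicate 1 to 0.245 without melanocyte replicate 3. The difference in the log2 ratio of Pfkm to Pfkl was -0.11, and ran from -0.40 when qMcSC replicate 2 was left out to 0.18 when qMcSC replicate 1 was, with 0.12 for melanocyte replicate 3; the cause was not tested. With the replicate number as a block, 17 members were higher in melanocytes, 9 in qMcSC, and 7412 of all genes were called. Deviations from the group mean correlated at 0.04 between the libraries numbered 1 and at -0.06 between those numbered 2. With 2 qMcSC libraries the deviations of one mirror those of the other, so these values cannot decide whether libraries are paired. The groups came from mice of different ages and reporters. The calls of Gpi1, Ldha and Rpia were lost under the block (adjusted p = 0.167, 0.062 and 0.227) and Ldhb was called (0.0375). Slc16a3 rested on 93 and 262 counts in qMcSC replicates 1 and 2, whose levels differed 1.57-fold.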
